A study of Mus musculus with 8 samples.

Results

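Border macrophages are the long-lived macrophages of the meninges, the perivascular spaces and the choroid plexus, and they share the surface integrin CD11b with microglia, the macrophages of the brain tissue itself. The 10 genes described here are widely used to tell border macrophages from microglia: Mrc1, Cd163, Lyve1, Pf4, Cbr2, F13a1, Ms4a7, Stab1, Siglec1 and Folr2. They were chosen by symbol, and all 10 were found among the 26062 gene IDs of the count table and were deep enough to be tested.

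RNA was sequenced from cells that had been bound to CD11b magnetic beads from the lateral geniculate nucleus, the part of the thalamus where retinal axons synapse. The mice were wild-type adult C57BL/6J males aged 2 to 3 months. They were uninjured (2 libraries), or had had both optic nerves crushed 1 day (3 libraries) or 3 days (3 libraries) earlier. Crush severs retinal axons within the nerve, at a distance from the collected tissue. Whether each library stands for 1 animal or a pool is not in the labels, so p-values reflect the spread among these libraries alone, and that spread may be technical.

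Several of the markers are endocytic receptors. Mrc1 encodes the mannose receptor CD206, Cd163 the receptor for hemoglobin bound to haptoglobin, Stab1 a scavenger receptor of the stabilin family, Lyve1 a hyaluronan receptor, and Folr2 a folate receptor. Siglec1 encodes the sialic acid receptor sialoadhesin and Ms4a7 a membrane protein of the MS4A family. Pf4, also called Cxcl4, encodes a chemokine best known from platelets, F13a1 encodes the catalytic subunit of the clotting transglutaminase factor XIII, and Cbr2 a carbonyl reductase. Because CD11b does not separate the cell types, beads against it can carry border macrophages along with microglia. In such bulk RNA, fewer cells of a type and less RNA per cell cannot be told apart.

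Promoter windows in the RefSeq table (GRCm38.p6) were found for 8 of the 10 members, in 11 windows. The 250 bases before the annotated start are shown for F13a1, the member with the clearest difference between groups, for Mrc1, the most abundant, and for Stab1, the steadiest. Capitals mark matches to GAGGAA, a core of the site bound by the macrophage factor PU.1, on either strand.
F13a1, chr13:37050245-37050494, minus strand: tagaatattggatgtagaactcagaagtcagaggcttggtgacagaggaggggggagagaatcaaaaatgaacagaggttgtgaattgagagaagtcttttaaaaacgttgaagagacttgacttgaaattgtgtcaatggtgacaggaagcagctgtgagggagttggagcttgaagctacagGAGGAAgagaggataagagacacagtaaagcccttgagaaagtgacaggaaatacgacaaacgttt
Mrc1, chr2:14229164-14229413, plus strand: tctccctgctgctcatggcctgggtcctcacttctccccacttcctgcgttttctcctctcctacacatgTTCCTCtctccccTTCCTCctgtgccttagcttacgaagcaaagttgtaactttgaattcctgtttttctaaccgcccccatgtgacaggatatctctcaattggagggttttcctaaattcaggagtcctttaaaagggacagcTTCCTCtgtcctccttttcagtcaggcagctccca
Stab1, chr14:31168642-31168891, minus strand: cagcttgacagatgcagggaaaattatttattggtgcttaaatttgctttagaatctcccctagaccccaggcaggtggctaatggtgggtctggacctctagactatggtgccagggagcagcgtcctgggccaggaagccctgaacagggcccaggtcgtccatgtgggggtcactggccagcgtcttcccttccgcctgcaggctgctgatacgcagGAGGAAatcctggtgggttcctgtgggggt
Counted from the start site, the first base of a match lay at -66 in the F13a1 window, at -180, -167 and -35 for Mrc1, and at -30 for Stab1. The other annotated start of F13a1 had no match. Among the member windows 5 of 11 held the core, against 23.3% of all 32851 windows of this length in the table. The MAF core TGCTGAC was in 0 of the 11 (3.81% of all windows), as was the interferon response element, spelled GAAA, then 2 bases of any kind, then GAAA (2.98%). AP-1 sites, TGANTCA, were in 2, those of Folr2 and Ms4a7 (6.75%), and STAT6 sites, TTC, then 4 bases of any kind, then GAA, in 1, that of Ms4a7 (5.85%). All 5 motifs were searched on both strands, they can overlap each other, and a match is a description of the letters only.

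Depth was 12700098 to 17994861 counts per library, and mitochondrially encoded genes took 21.3% to 22.5% of the counts in uninjured libraries, 13.6% to 21.9% at 1 day and 22.8% to 30.3% at 3 days. Levels are given as CPM, the count over the TMM-scaled library size. The 13 homeostatic microglia markers summed to 7849 to 12115 CPM per library, and the 10 border macrophage markers to 652 to 1095 CPM, so markers of both cell types were present in every library. The members' own counts ran from 17 (Folr2, day 1 replicate 1) to 8133 (Mrc1, day 1 replicate 3) per library, so the values of Folr2 were the least precise. Of the 1546 exonic bases GENCODE M21 gives Folr2, 975 also belong to Gm10602 on the opposite strand, and no source used here gives the strand setting of the counting.

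To set genes beside each other, levels were divided by length, which takes coverage along a transcript as even. That was not checked, and the RNA had been amplified, so the order is a rough one. As CPM per kilobase of annotated exon, averaged over the 8 libraries, Mrc1 stood highest at 53.4, followed by Pf4 (31.3), Stab1 (26.0), Cbr2 (19.8), Lyve1 (17.0), F13a1 (11), Cd163 (10.2), Ms4a7 (5.73), Folr2 (2.48) and Siglec1 (1.82). Exon lengths were merged over all transcripts of a gene, which lowers the value of genes with rarely used exons. Pf4 ranks high on this scale although it had 22.6 CPM, since its transcript is short.

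At 3 days F13a1 fell, and no other member passed the test in any comparison by edgeR. F13a1 was at 80.8 and 90.1 CPM in uninjured libraries. It was at 108, 81.3 and 95.7 CPM on day 1 and at 46.3, 53.3 and 36.2 CPM at 3 days. All 3 libraries from 3 days lay under all 5 others. The log2 fold change was -0.92 at 3 days against uninjured (SE 0.22, edgeR adjusted p = 0.0309), a level 47% lower, and -1.07 at 3 days against 1 day (SE 0.20, adjusted p = 0.00337), a level 52.4% lower. At 1 day it was not called against uninjured mice (0.15, SE 0.22, adjusted p = 0.828, 95% interval -0.31 to 0.62).

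The fall of F13a1 against uninjured mice was called in 12 of 17 alternative settings. It was not called without day 3 replicate 1 (adjusted p = 0.0944), day 3 replicate 3 (0.142), uninjured replicate 1 (0.149) or uninjured replicate 2 (0.212). Nor was it called with a block for replicate number, a fit given in the last section. The log2 fold change stayed between -1.10 and -0.83 in all 17 settings. The fall between 1 and 3 days was called in all 8 fits that omit 1 library. It was lost when choroid plexus marker level entered the fit as a covariate (-0.60, adjusted p = 0.897), a covariate that separates the 1 day libraries from the rest.

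Of the 10 members, 1 was called lower at 3 days against uninjured mice, beside 0.983% of all 17390 genes tested, and 1 was called lower at 3 days against 1 day, beside 5.75% of all genes. A count of 1 in 10 is near the latter share. No member was called higher at 3 days, beside 2.49% of all genes against uninjured mice and 5.24% against 1 day. At 1 day 0 of 10 were called by edgeR, DESeq2 or limma-voom, while edgeR called 1.16% of all genes lower and 0.610% higher. Nor did any member have an unadjusted p under 0.05 there, beside 7.47% of all genes lower and 7.30% higher. The members had a median log2 fold change of 0.00 at 1 day and -0.29 at 3 days against uninjured mice, and of -0.30 at 3 days against 1 day. Over all tested genes it was 0.06, 0.00 and 0.02.

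**Figure D1:**
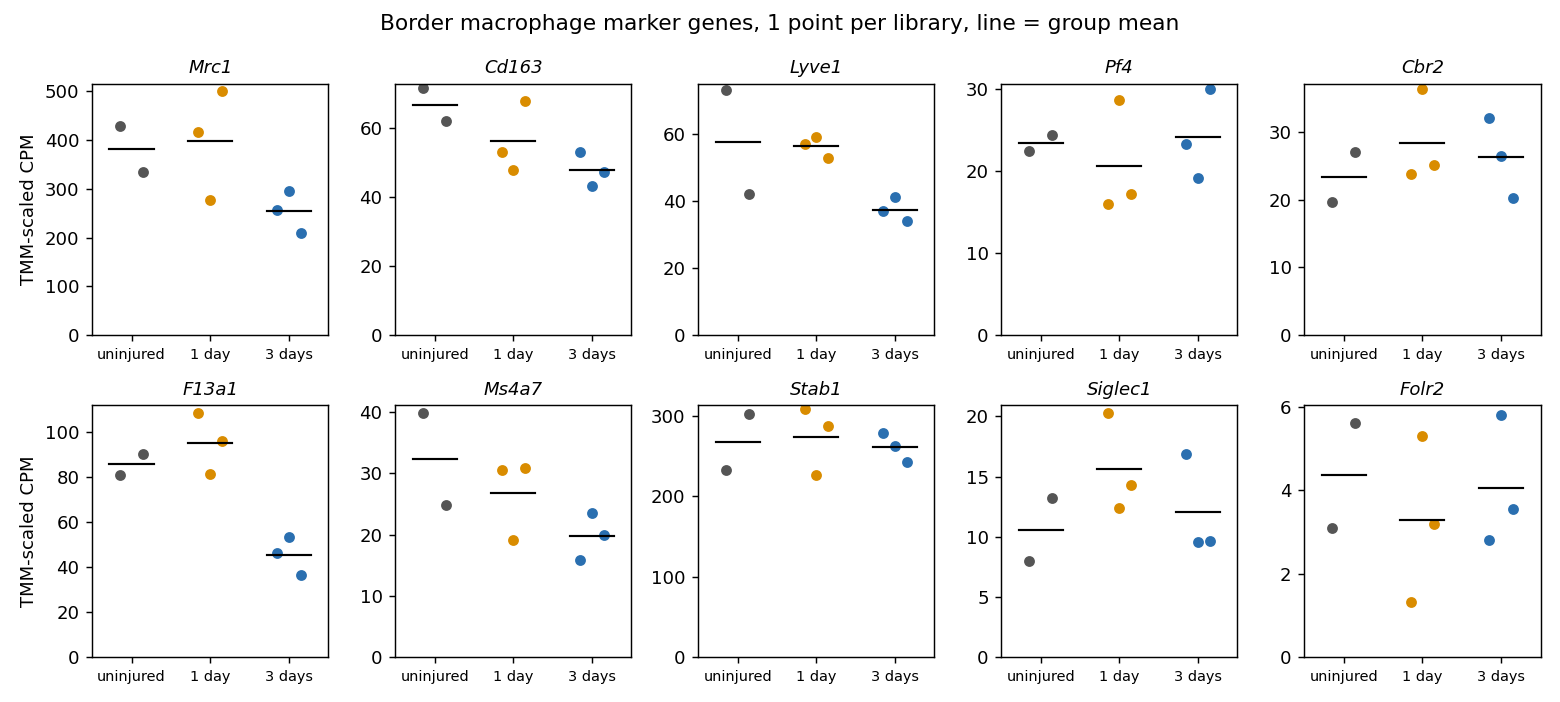
TMM-scaled CPM (vertical axis, from 0) of each of the 10 marker genes in the 8 libraries, grouped as uninjured, 1 day and 3 days after crush; points are libraries and lines group means. F13a1 lies at 36.2 to 53.3 CPM in the 3 day libraries and at 80.8 to 108 CPM in the others, while Stab1 spans 227 to 309 CPM with overlapping groups.

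The mannose receptor gene Mrc1 showed the next clearest difference. It was at 428 and 334 CPM in uninjured libraries, at 417, 278 and 501 CPM on day 1, and at 257, 295 and 209.5 CPM at 3 days. The 3 day libraries lay under both uninjured ones, but day 3 replicate 2 lay above day 1 replicate 2. Its log2 fold change was -0.59 at 3 days against uninjured (SE 0.22, adjusted p = 0.19) and -0.65 against 1 day (SE 0.20, adjusted p = 0.0508), neither past the threshold in the edgeR fit.

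The Mrc1 call between 1 and 3 days sat at the threshold. It passed by DESeq2 (adjusted p = 0.0325), by limma-voom (0.0445), with no filter on low counts (0.0243), and without uninjured replicate 1 (0.0495), uninjured replicate 2 (0.0499) or day 1 replicate 2 (0.00529). Day 1 replicate 2 had the lowest Mrc1 level of its group, and without it Mrc1 was also called against uninjured mice (-0.64, adjusted p = 0.0461). Over the 17 alternatives the log2 fold change between the times ran from -0.86 to -0.21, the latter with the choroid plexus covariate.

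Lyve1, the hyaluronan receptor, was at 73.1 and 42.0 CPM in uninjured libraries, at 57.0, 59.1 and 52.9 CPM on day 1, and at 36.9, 41.1 and 34.2 CPM at 3 days. The 3 day libraries lay under all others, by less than 1 CPM in the case of uninjured replicate 2. The log2 fold changes at 3 days were -0.62 against uninjured (SE 0.25, adjusted p = 0.23) and -0.59 against 1 day (SE 0.23, adjusted p = 0.116), and Lyve1 was called in none of the 17 alternatives.

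Cd163, the hemoglobin scavenger receptor, was at 71.4 and 61.9 CPM without injury, at 52.9, 47.8 and 67.9 CPM on day 1, and at 53.0, 43.3 and 47.3 CPM at 3 days. Its 3 day libraries lay under the uninjured pair, and only day 3 replicate 1 lay within the range of 1 day. The log2 fold change at 3 days against uninjured was -0.48 (SE 0.23, adjusted p = 0.324, 95% interval -0.96 to 0.01). Ms4a7 was at 39.9 and 24.8 CPM, at 30.5, 19.1 and 30.8 CPM, and at 15.8, 23.5 and 19.9 CPM in the same order, with a log2 value of -0.71 at 3 days against uninjured (SE 0.33, adjusted p = 0.309). Its 3 day libraries lay under both uninjured ones and overlapped those of 1 day.

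Thus F13a1, Mrc1, Lyve1, Cd163 and Ms4a7 each had 3 day libraries below the uninjured pair without overlap. Those are 5 of the 10 members, beside 19.3% of all tested genes that were lower without overlap in that comparison, and 4 of them (all but Cd163) had an unadjusted p under 0.05, beside 6.60% of all genes. Against 1 day, 2 members (F13a1 and Lyve1) were lower without overlap, beside 13.6% of all genes, and 3 (F13a1, Mrc1 and Lyve1) had an unadjusted p under 0.05, beside 13.1%. No member was higher without overlap at 3 days, beside 20.1% of all genes against uninjured mice and 16.1% against 1 day, and none was higher at an unadjusted p under 0.05, beside 9.21% and 13.1%. At 1 day the groups of all 10 members overlapped, beside 15.0% of all genes that were lower and 14.3% that were higher without overlap.

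The other 5 members did not show that order. Stab1 was at 233 and 302 CPM without injury, at 309, 227 and 287 CPM on day 1, and at 279, 263 and 242 CPM at 3 days. Its groups overlapped in every comparison, and its log2 fold changes were 0.03 (95% interval -0.34 to 0.41) at 1 day and -0.04 (-0.41 to 0.34) at 3 days. It had the narrowest range of the 10, with 1.36-fold between its highest and lowest library, against 2.99-fold for F13a1 and 4.39-fold for Folr2.

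Pf4 was at 22.4 and 24.4 CPM without injury, 16.0, 28.6 and 17.2 CPM at 1 day, and 23.3, 19.1 and 29.9 CPM at 3 days (3 days against uninjured 0.04, 95% interval -0.69 to 0.77). The chemokine gene was highest in day 3 replicate 3, the library in which F13a1, Mrc1 and Lyve1 were lowest. Cbr2, the carbonyl reductase gene, ranged from 19.7 to 36.3 CPM with overlapping groups (3 days against uninjured 0.17, 95% interval -0.52 to 0.86).

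Siglec1 was at 7.96 and 13.2 CPM without injury, 20.3, 12.4 and 14.3 CPM at 1 day and 16.9, 9.53 and 9.60 CPM at 3 days. The groups overlapped, and the largest difference was 0.56 on the log2 scale at 1 day (SE 0.44, adjusted p = 0.635, 95% interval -0.38 to 1.5). Folr2 ranged from 1.32 to 5.81 CPM, with an interval at 3 days of -1.66 to 1.45, which holds 2-fold changes in either direction.

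**Figure D2:**
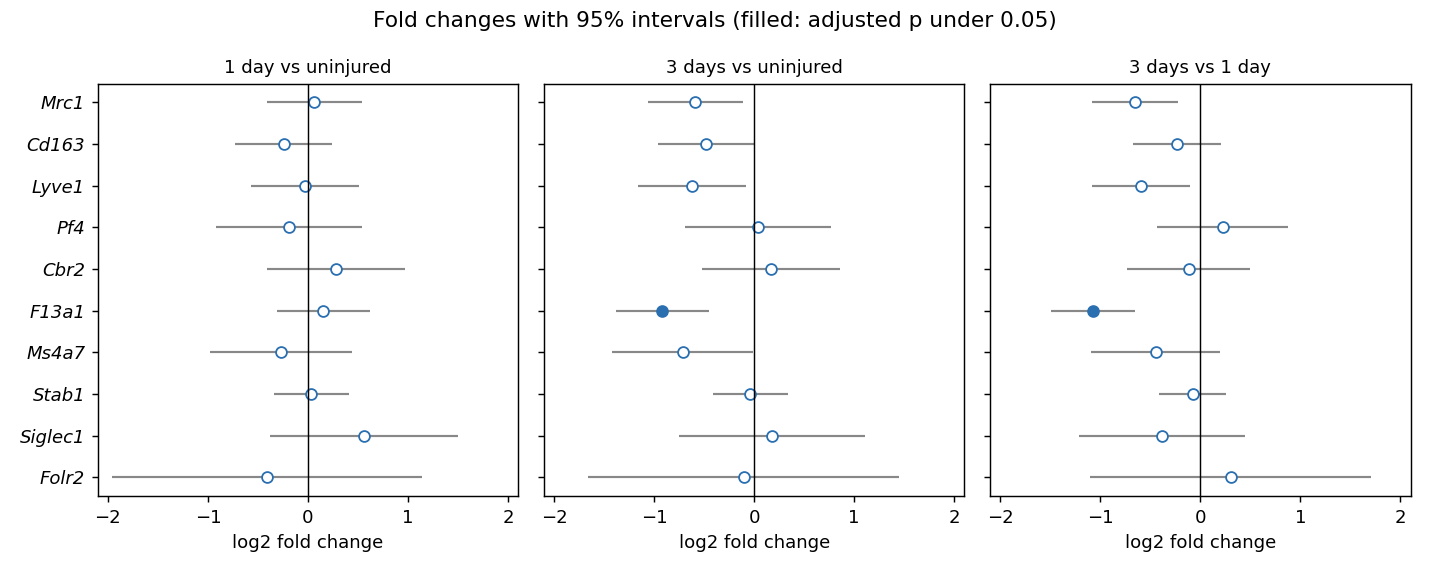
Log2 fold change (horizontal axis) of each marker gene in the 3 comparisons, with its 95% interval from the edgeR fit; filled points have an adjusted p under 0.05. Only F13a1 is filled, at -0.92 and -1.07 in the comparisons with 3 days, and the intervals of Stab1 are the narrowest.

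Setting the members against Stab1 within each library removes what the libraries share in scaling. Stab1 was picked for this after its values were seen, because it varied least. The ratios therefore restate the members' own values and are not separate evidence of a fall. F13a1 stood at 34.6% and 29.8% of the Stab1 level (CPM, not per length) in uninjured libraries, at 35.1%, 35.8% and 33.3% at 1 day, and at 16.6%, 20.3% and 15.0% at 3 days. The 3 day values lay under all others, and by group the ratio was 32.2 ± 3.38% (SD, n = 2), 34.7 ± 1.29% (SD, n = 3) and 17.3 ± 2.71% (SD, n = 3).

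For Mrc1 the same ratio was 183% and 111%, then 135%, 122% and 174%, then 92.3%, 112% and 86.7%, so day 3 replicate 2 overlapped uninjured replicate 2. Lyve1 (13.3%, 15.6% and 14.2% at 3 days, 13.9% in uninjured replicate 2) and Ms4a7 (8.92% in day 3 replicate 2, 8.20% in uninjured replicate 2) overlapped the uninjured pair on this scale as well. Pf4 stood at 8.84 ± 1.10%, 7.91 ± 4.07% and 9.33 ± 2.68% of Stab1 in the 3 groups, with overlap throughout. A ratio of this kind shows unequal change of the pair, not which of them moved.

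**Figure D3:**
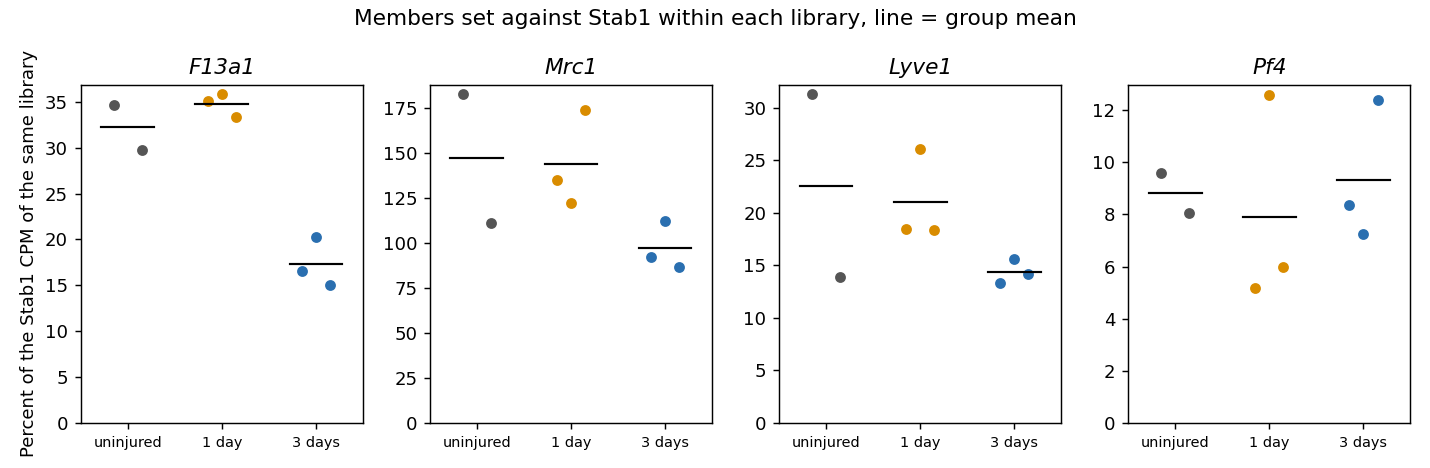
Level of F13a1, Mrc1, Lyve1 and Pf4 as a percentage of the Stab1 CPM of the same library (vertical axes from 0), by group; points are libraries and lines group means. F13a1 lies between 29.8% and 35.8% in the uninjured and 1 day libraries and between 15.0% and 20.3% at 3 days.

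Day 3 replicate 3 held the lowest value of 3 members (Mrc1, Lyve1 and F13a1). Day 1 replicate 1 held the highest value of 3 (F13a1, Stab1 and Siglec1) and the lowest of Pf4 and Folr2. Uninjured replicate 1 likewise held the highest value of 3 (Cd163, Lyve1 and Ms4a7). The same uninjured library was also the lowest for Cbr2 and Siglec1, so the members did not share a single order of libraries. Their sum was 979.6 and 926 CPM without injury, 1036, 795 and 1095 CPM at 1 day, and 763, 779 and 652 CPM at 3 days, of which Mrc1 alone made up 32.1% to 45.7%.

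Tissues in which border macrophages live left their own transcripts in the libraries. The 10 choroid plexus epithelium markers summed to 584 to 5971 CPM without injury, 12.8 to 93.7 CPM at 1 day and 676 to 3891 CPM at 3 days. Of these, 4 fell at 1 day against uninjured and 6 rose from 1 to 3 days by edgeR, while DESeq2 called 8 and 10 and limma-voom 0 and 0. By edgeR 0 to 6 and 2 to 8 were called when 1 library was left out. The lowest counts were 0 without day 1 replicate 2 and 2 without day 1 replicate 1. Over the same libraries the members summed to 926 to 979.6, 795 to 1095 and 652 to 779 CPM. Uninjured replicates 1 and 2 stood at 5971 and 584 CPM of choroid plexus markers, and at 979.6 and 926 CPM of members.

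Endothelial markers, from the vessels beside which perivascular macrophages sit, summed to 1928 to 2133 CPM without injury, 904 to 1159 CPM at 1 day and 1668 to 1716 CPM at 3 days. Of 15, 9 fell at 1 day and 9 rose from 1 to 3 days by edgeR. Fewer passed with 1 library left out, down to 2 (without uninjured replicate 1) and 6 (without day 3 replicate 3). Markers of meningeal and perivascular fibroblasts summed to 124 to 282, 39.9 to 76.6 and 93.4 to 351 CPM. The part of these tissues in the members' levels was not tested.

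**Figure D4:**
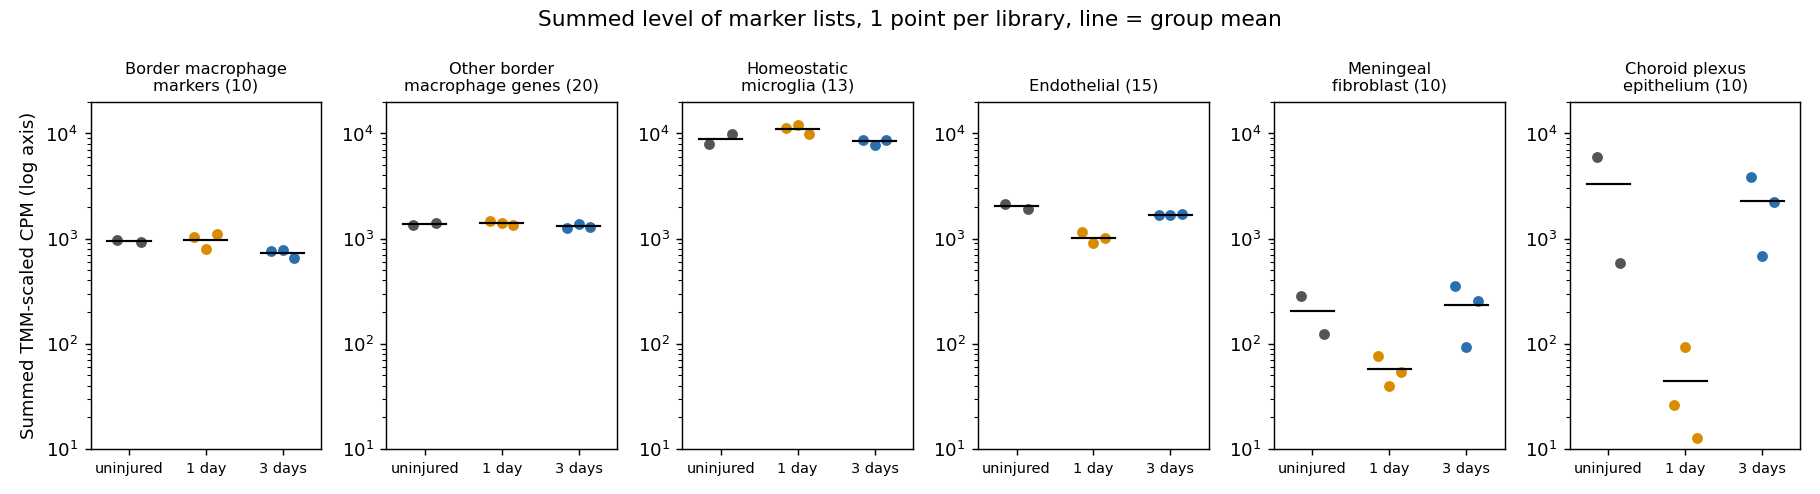
Summed TMM-scaled CPM (log axis) of 6 marker lists in the 8 libraries, by group; points are libraries and lines group means. Choroid plexus, endothelial and fibroblast sums are lowest in the 1 day libraries, while the border macrophage marker sum is lowest at 3 days, at 652 to 779 CPM.

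Some members are also made by other cells. Platelet markers, which bear on Pf4 and F13a1, summed to 42.8 to 137 CPM over the 8 libraries. Most of that was the integrin gene Itgb3, which other cells also make (64.8 ± 2.48 CPM without injury, SD, n = 2), and the platelet chemokine gene Ppbp was at 1.14 ± 1.18 CPM without injury and 0.155 ± 0.135 CPM at 3 days (SD, n = 3). By edgeR, DESeq2 and limma-voom 0 of 7 tested platelet genes were called in any comparison, with 1 lower between the times at an unadjusted p under 0.05. Monocyte markers, which bear on F13a1, summed to 599.8 to 620.4 CPM without injury, 286 to 361 at 1 day and 378 to 562 at 3 days. Most of it was fibronectin, Fn1, which vessels and fibroblasts also make (574 ± 23.6, 251 ± 11.8 and 415 ± 94.3 CPM). Fn1 was the only 1 of the 9 tested genes called by edgeR, lower at 1 day (-1.20, adjusted p = 0.00324) and higher from 1 to 3 days (0.73, adjusted p = 0.00878). Of the whole list, 8 of 9 genes had a positive log2 fold change at 1 day (median 0.92) and 7 of 9 a negative one from 1 to 3 days (median -1.08), beside medians of 0.06 and 0.02 over all genes. The monocyte receptor gene Ccr2 was at 3.09 ± 0.365, 6.13 ± 3.08 and 2.80 ± 0.842 CPM. The part of these cells in the F13a1 values was not tested.

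Lymphatic endothelium also makes Lyve1, and its markers summed to 105 to 125 CPM without injury, 97.1 to 113 CPM at 1 day and 68.0 to 70.2 CPM at 3 days. Prox1, a transcription factor of lymphatic endothelium that neural cells also make, was the largest part of it at 80.6 ± 10.1, 86.7 ± 6.24 and 37.3 ± 3.39 CPM. By edgeR it was the 1 of 4 tested genes that fell at 3 days, against uninjured mice (-1.11, SE 0.20, adjusted p = 0.00677, but 0.135 without uninjured replicate 1) and against 1 day (-1.22, SE 0.18, adjusted p = 0.000898, also whichever library was omitted). The 3 day libraries of Prox1, like those of Lyve1, lay under all others. Flt4, another gene of the list, was at 28.5 ± 1.03, 15.6 ± 6.49 and 27.9 ± 3.62 CPM and was not called. Its log2 fold change was -0.03 at 3 days against uninjured and 0.84 from 1 to 3 days. All 4 tested genes had a negative value against uninjured mice, while between the times 2 were positive and 2 negative (median 0.27). The part of lymphatic cells in the Lyve1 values was not tested.

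A further 20 genes known from border macrophages gave 1 call by edgeR over the 3 comparisons. Their sum was 1355 and 1395 CPM without injury, 1358 to 1462 CPM at 1 day and 1251 to 1376 CPM at 3 days. By edgeR 0 of 20 were called at 1 day (1 lower at an unadjusted p under 0.05, 0 by DESeq2 and limma-voom). At 3 days 0 were called against uninjured (4 lower at an unadjusted p under 0.05, 2 lower by DESeq2, 0 by limma-voom), with a median log2 fold change of -0.14. From 1 to 3 days 1 fell, Hpgd, which encodes a prostaglandin-degrading enzyme, from 290.4 ± 46.5 to 170.1 ± 17.1 CPM (-0.77, SE 0.16, adjusted p = 0.00691). It passed whichever library was omitted. Between the times DESeq2 called 2 of the 20 lower and limma-voom 1.

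Other genes of that list were not called by edgeR. Cd209f, a C-type lectin gene, was at 6.66 ± 1.94 CPM without injury, 2.44 ± 0.879 at 1 day and 1.58 ± 0.752 at 3 days (3 days against uninjured -2.07, SE 0.73, adjusted p = 0.16). Maf, a transcription factor of tissue macrophages, was at 291 ± 37.8, 362 ± 63.0 and 269.6 ± 28.4 CPM, and Dab2, an endocytic adaptor, at 430.2 ± 34.9, 426 ± 29.8 and 531 ± 44.4 CPM.

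A second kind of border macrophage has high MHC class II, and 9 genes of that state, class II and others such as Ccr2, were read. Of these 0 were called at 1 day by edgeR (3 higher at an unadjusted p under 0.05, 1 by DESeq2, 0 by limma-voom). Cd52, a short surface glycoprotein of leukocytes, rose from 12.4 ± 2.24 CPM to 55.6 ± 14.5 CPM at 3 days (2.17, SE 0.40, adjusted p = 0.00802), and was not called without day 3 replicate 3 (0.0633) or uninjured replicate 1 (0.136). From 1 to 3 days 0 were called higher and 2 lower by edgeR (2 and 2 at an unadjusted p under 0.05, 1 and 2 by DESeq2, 0 and 2 by limma-voom). The lysozyme gene Lyz2 fell from 311 ± 43.0 CPM at 1 day to 146 ± 6.50 CPM at 3 days (-1.09, SE 0.16, adjusted p = 0.000597), whichever library was omitted. Cd74, the class II invariant chain, was at 757 ± 137, 1074 ± 155 and 751 ± 32.2 CPM. It fell from 1 to 3 days (adjusted p = 0.0326) but stayed called only without day 1 replicate 3 or 1 of the uninjured libraries. Without each of the other 5 libraries its adjusted p was 0.0578 to 0.107. The class II gene H2-Aa was at 61.2 ± 7.73, 62.9 ± 30.0 and 103 ± 34.6 CPM and was not called (0.72 from 1 to 3 days, SE 0.32, adjusted p = 0.165).

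Cd163 delivers hemoglobin for breakdown, so genes that handle heme and iron were set beside it. Slc40a1, the iron exporter ferroportin, fell from 288 ± 86.2 CPM without injury to 118 ± 36.5 CPM at 3 days (-1.29, SE 0.24, adjusted p = 0.00799), but not without day 3 replicate 3 (0.0531) or uninjured replicate 1 (0.162). The ferritin gene Fth1 was at 3345 ± 154, 3625 ± 561 and 2994 ± 848 CPM and was not called. Of 9 genes tested on the list, 0 were called at 1 day by edgeR, DESeq2 or limma-voom (unadjusted, 1 was higher and 1 lower). At 3 days Lrp1, a receptor that takes up heme bound to hemopexin, rose against uninjured mice (0.59, adjusted p = 0.0475) beside the fall of Slc40a1, but stayed called only without day 1 replicate 2 or uninjured replicate 2 (adjusted p 0.0536 to 0.531 without each of the others). Between the times 1 fell, the ferritin gene Ftl1, and it was not called without day 1 replicate 1 or 3 or any 1 of the 3 day libraries (0.0551 to 0.106).

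Siglec1 is a known target of type I interferon, and 14 interferon-stimulated genes were read beside it. They summed to 264 to 309 CPM without injury, 141 to 238 at 1 day and 225 to 242 at 3 days. By edgeR 1 fell at 1 day, Rsad2 (59.7 ± 26.5 to 20.7 ± 8.76 CPM, adjusted p = 0.0464), and it stayed called only without day 1 replicate 3 or uninjured replicate 2. Its adjusted p was 0.719 without uninjured replicate 1 and 0.0599 to 0.0790 without each of the other 5. Unadjusted, 2 of the 14 were lower at 1 day with p under 0.05, and 1 was higher, Isg15 (3.06 ± 0.923 to 8.82 ± 4.17 CPM). At 3 days 0 of 14 were called against either group by edgeR, DESeq2 or limma-voom, with 1 higher at an unadjusted p under 0.05 against uninjured and 3 higher against 1 day.

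Of 17 tested relatives of the member receptors, edgeR called 1 higher and 3 lower from 1 to 3 days (2 and 3 by DESeq2, 0 and 3 by limma-voom). The higher one was Folr1, a folate receptor gene at 9.40 and 0.515 CPM without injury, at 0 in all 3 libraries of 1 day, and at 14.9, 1.71 and 9.28 CPM at 3 days, low in the same libraries as the choroid plexus sums. The part of choroid plexus cells in it was not tested. Folr1 was also the 1 called lower at 1 day (adjusted p = 0.0231, but 0.0551 to 0.39 without day 1 replicate 1, 2 or 3, day 3 replicate 3 or uninjured replicate 1). At 3 days against uninjured mice 1 was called lower, Siglech (-0.79, adjusted p = 0.0198), and not without day 3 replicate 1 (0.0566), day 3 replicate 3 (0.0855) or uninjured replicate 2 (0.26). Siglece, a sialic acid receptor gene, fell from 98.9 ± 42.4 CPM at 1 day to 37.7 ± 11.3 CPM at 3 days (adjusted p = 0.00804, but 0.0609 without day 3 replicate 3).

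Over the same interval Cd33 and Siglech, relatives of Siglec1 made by microglia, fell from 1 to 3 days. Cd33 went from 1248 ± 103 to 636 ± 33.2 CPM (-0.97, SE 0.15, adjusted p = 0.00101) and Siglech from 769 ± 121 to 361 ± 23.0 CPM (-1.09, SE 0.16, adjusted p = 0.000573). Both passed whichever library was omitted. Siglec1 in that comparison differed by -0.38 on the log2 scale (SE 0.39, adjusted p = 0.595), and the difference between the genes was not tested.

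Among genes of alternative activation, the state in which Mrc1 is a standard marker, 0 of 14 were called at 1 day by edgeR, DESeq2 or limma-voom (3 higher at an unadjusted p under 0.05). At 3 days 2 fell against uninjured mice, Klf4 and Il10ra, and 1 rose, Tgm2, a transglutaminase, which stayed called only without day 1 replicate 1 or 2 (adjusted p 0.0517 to 0.474 without each of the others). DESeq2 and limma-voom each called 2 higher and 2 lower there. Klf4, a transcription factor of that state, fell from 341 ± 33.6 CPM to 146 ± 20.8 CPM (-1.22, SE 0.19, adjusted p = 0.00264), a call that no omission of 1 library ended. Il10ra, the interleukin-10 receptor subunit, was 166 ± 14.1, 194 ± 9.84 and 94.1 ± 15.7 CPM in the 3 groups and fell from 1 to 3 days (-1.04, SE 0.16, adjusted p = 0.00106), likewise under every omission. Its fall against uninjured mice was not called without day 3 replicate 3 (0.0827), uninjured replicate 1 (0.0981) or uninjured replicate 2 (0.164). From 1 to 3 days Klf4 (-1.25, adjusted p = 0.000508, whichever library was omitted) and the interleukin-4 receptor gene Il4ra (-0.60, adjusted p = 0.0379) were the other genes called lower, and the scavenger receptor gene Msr1 was called higher (0.85, adjusted p = 0.0377). Il4ra stayed called only without day 1 replicate 3 (0.0559 to 0.159 without each of the others). Msr1 was not called without day 1 replicate 1 or 2 or any 1 of the 3 day libraries (0.056 to 0.145).

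Of 12 macrophage transcription factor and growth factor receptor genes, 1 rose at 1 day, Rel (0.80, adjusted p = 0.00678, but 0.106 without uninjured replicate 1), and 5 fell from 1 to 3 days (2 without day 3 replicate 3). Runx1 was among them, from 602 ± 39.0 to 336 ± 43.3 CPM (-0.84, SE 0.14, adjusted p = 0.00135), also under every omission. Homeostatic microglia markers were lower over the same interval: 7 of 13 fell (4 without day 3 replicate 3), among them Tmem119, a microglial membrane protein, from 746 ± 82.9 to 409 ± 10.4 CPM (-0.87, SE 0.16, adjusted p = 0.00394). At 3 days against uninjured mice 3 of 13 fell, P2ry12, a microglial purine receptor gene (1230 ± 26.9 to 660.4 ± 37.2 CPM, -0.90, adjusted p = 0.00139, whichever library was omitted), Siglech and P2ry13, and 6 were lower at an unadjusted p under 0.05. P2ry13 (adjusted p = 0.0445) lost its call without day 1 replicate 1, day 3 replicate 1 or 3, or either uninjured library (0.0502 to 0.279). In the comparison of 3 days with uninjured mice, 5 of 13 had a positive log2 fold change. Of these, 2 were higher at an unadjusted p under 0.05, Fcrls (499 ± 77.6 to 749.5 ± 115 CPM) among them. DESeq2 and limma-voom each called 1 higher there, edgeR 0. Both comparisons in which F13a1 fell were thus also ones in which some microglia markers fell, and the part of one in the other was not tested.

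Over the 8 libraries, 5 genes outside the list had the pattern most like the mean standardized log2 level of the 10 members, among 9403 genes averaging 5 CPM or more. They were Tfeb (Pearson r 0.966), Fam91a1 (0.963), Kdm7a (0.963), Herc2 (0.960) and Lpin1 (0.958). Each r is a description over 8 libraries that share their groups, picked as the highest of many, and has no test. Tfeb, a transcription factor of lysosome genes, was at 20.9 and 24.7 CPM without injury, 24.5, 17.9 and 28.8 CPM at 1 day, and 17.4, 12.7 and 7.66 CPM at 3 days, lowest in day 3 replicate 3 like Mrc1, Lyve1 and F13a1.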

How the data were processed

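The authors deposited 1 table of unnormalized read counts by Ensembl gene ID, with a column for each library, and columns were matched to samples by title. The submitters' processing notes list FastQC, STAR, HTSeq and build mm9. No source used here gives their versions, the annotation or the strand setting. Per the labels' protocols, RNA went through linear amplification. Symbols matched 25925 of 26062 IDs, and the others held 0.127% of counts. Exon lengths and overlaps were read from GENCODE M21 and promoters from RefSeq, both on GRCm38, so coordinates are theirs and not those of the counting.

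Tests used edgeR 4.0.16 (R 4.3.3). Genes were kept by filterByExpr over the 3 groups (17390 genes), scaled by TMM and fitted with robust quasi-likelihood, all 8 libraries together and a mean for each group, so that all groups share 1 estimate of the spread. Calls are at a Benjamini-Hochberg adjusted p under 0.05 among all 17390 genes. An SE is the size of the log2 fold change over the square root of F, and a 95% interval uses the t quantile of the fit. Libraries within a group differed beyond sampling noise (chi-square over its degrees of freedom 31.4 to 64.8) and were each counted as 1 replicate.

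The fit was tested on simulated counts of 17390 genes, 3 times per comparison. For 1 day against uninjured it recovered 11% of 2-fold and 41% of 4-fold changes, and 12.4% of its calls were false. For 3 days against uninjured these shares were 14.3%, 39.7% and 6.9%, and for 3 days against 1 day 17%, 50.7% and 4.25%.

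Members and lists were chosen with earlier results of these data known. All members are named. The genes named from another list are among the 4 with its smallest p in a comparison. The genes most like the members leave out predicted genes, unnamed clones and small RNAs. Alternatives were DESeq2 1.42.0, limma-voom (limma 3.58.1), 2 other scalings, no filter, fits to 2 groups, a block for replicate number, a choroid plexus covariate and omission of each library. Omission of mitochondrially encoded genes was chosen after seeing the data.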

Additional observations from a re-analysis of the deposited data

Results flagged for a closer look

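The difference of F13a1 from uninjured mice was unequal at 1 day and at 3 days after crush. The value at 3 days minus that at 1 day was -1.07 on the log2 scale (edgeR adjusted p = 0.00337). Both differences share the uninjured level, so this is the comparison of 3 days with 1 day given above and not a further test. F13a1 was the 1 of the 10 members for which it passed by edgeR, while DESeq2, limma-voom and the fit with no filter also called Mrc1. With the choroid plexus covariate F13a1 did not pass (-0.60, adjusted p = 0.897).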

How the results depend on the processing

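Of 510 recomputed member fold changes, 497 kept their side of the threshold, 6 lost a call (F13a1) and 7 gained one (Mrc1), and no called value changed sign. Members called at 1 day stayed at 0 under all 17 alternatives. At 3 days against uninjured mice the number was 0 with the replicate block (F13a1 -0.86, adjusted p = 0.0829) and 0 to 2 with 1 library left out. Between the times it was 2 by DESeq2, by limma-voom and with no filter, 0 with the choroid plexus covariate, and 1 to 2 with 1 library left out. The cause was not tested.

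Genes called at 1 day numbered 308, but 110 with 2 groups only, 881 by DESeq2, 0 with the choroid plexus covariate and 39 to 368 with 1 library left out (39 without uninjured replicate 1). At 3 days they numbered 604, but 1345 with 2 groups only, 1375 by DESeq2 and 108 to 982 with 1 library left out. Between the times they numbered 1912, but 3099 by DESeq2, 20 with the choroid plexus covariate and 747 to 2362 with 1 library left out. With the replicate block they numbered 301, 424 and 1700. Same-numbered libraries did not deviate together (correlations of -0.0599 to 0.0906 over 7 pairs), so the numbers were not read as pairs. Folr2, at 17 to 109 counts per library, is the member most limited by depth.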
